A study of Mus musculus with 4 samples.

Results

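The genes described are 9 components of the JAK-STAT pathway that carries the thrombopoietin signal in megakaryocytes and platelets, followed through 4 libraries of mouse platelet RNA. They were chosen by name (Jak2, Jak1, Tyk2, Stat3, Stat5a, Stat5b, Sh2b3, Socs3 and Cish), and all 9 are listed in both deposited tables, which share 14652 genes. The libraries are WT and its littermates labelled HuR cKO, a platelet-specific conditional deletion of HuR, both at 3 months, and wild-type Young at 3 months and Old at 24 months. All mice were male, and each library pooled the platelets of 7 mice, so that each group is 1 library and no difference has a replicate check. The sources used here do not give the driver of the deletion or the allele.

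Thrombopoietin is the main hormone of platelet production. Its receptor has no kinase of its own and relies on JAK kinases bound to its tail, chiefly Jak2, which phosphorylate STAT transcription factors such as Stat5a, Stat5b and Stat3. STATs enter the nucleus and switch on genes, among them Socs3 and Cish, whose proteins then dampen the same signal, while the adaptor Sh2b3 (Lnk) binds Jak2 and restrains it. Platelets have no nucleus, and most of their RNA comes from the megakaryocyte.

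Recovered reads per library ranged from 17702341 to 18472149. Libraries were scaled to each other by the trimmed mean of M values (TMM), and the 95% interval given with each ratio reflects the counting of reads alone. The words rose and fell are kept for genes with 100 reads or more in the higher library whose whole interval lay 2-fold or more from 1 (the size rule). Where 4 values follow each other, they are in the order WT, labelled cKO, Young and Old. Elavl1, which encodes HuR, had 876, 1481, 621 and 527 reads, so that the library labelled cKO was the highest, at 1.66 times WT (1.53 to 1.81) and 2.62 times Young (2.38 to 2.88). Gene-level Elavl1 reads were thus not lower in the library labelled cKO, and the wild-type libraries differed too (WT over Young 1.54, 1.39 to 1.71). These sums do not show whether part of the gene was deleted or which cells the reads came from. Directions below are those of the labelled library. All 12 platelet markers had reads in every library (51541 to 63859 RPM summed, where RPM is reads scaled to a common library total). Summed neutrophil markers ran from 25.4 RPM in Young, 32.1 in the library labelled cKO and 58.3 in WT to 774 RPM in Old. In bulk RNA, fewer cells of a type and less RNA per cell cannot be told apart.

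STAT dimers bind the palindrome TTCNNNGAA, which reads the same on both strands. It was found in 2 of the 11 RefSeq promoters of the 9 genes (GRCm38.p6, 300 bases around each start site), those of the feedback inhibitors Socs3 and Cish, and in 8.30% of all 32851 promoters. More than 1 copy, as in Cish, was present in 0.457% of promoters. The windows are shown because these genes were the only members whose Old and Young reads differed with an interval bound of more than 2-fold. Socs3 was higher in Old and Cish lower, and Cish was under 100 reads in both libraries. A link between the motif and these differences was not tested. Capitals mark the fixed letters of the palindrome. The Socs3 copy starts 154 bases before the RefSeq start site (chr11:117969502-117969530, minus strand), and the Cish copies start at bases 1 and 12 from its start site (chr9:107296654-107296683, plus strand). Both windows lie inside the annotated gene spans, 117966079 to 117970047 for Socs3 and 107296026 to 107302784 for Cish. The RefSeq start sites used thus lie downstream of the annotated gene starts.
Socs3: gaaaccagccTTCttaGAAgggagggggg
Cish: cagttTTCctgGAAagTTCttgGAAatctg
A match is a description of these letters, and binding was not measured.

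Stat5a and Stat5b lie side by side on chromosome 11, 8626 bases apart, and their coding sequences are 90.8% identical over 2291 aligned bases. The longest identical run is 324 bases, starting at coding base 571 in both. Its first 90 bases (GENCODE M21 transcripts) are shown because reads from such a stretch fit both genes.
Stat5a and Stat5b: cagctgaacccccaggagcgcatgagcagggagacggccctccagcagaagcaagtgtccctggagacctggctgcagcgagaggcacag
Of all windows of 50 bases, 17.1% in the Stat5a transcript and 11.8% in that of Stat5b occur in the other gene. Jak2, Jak1, Tyk2, Stat3 and Socs3 share 0% of their windows with any other annotated gene, Sh2b3 0.386%, and Cish 15.8%, mostly with the antisense gene Gm17041. Stat5a and Stat3 overlap tail to tail by 72 bases. The sources used here do not say how reads that fit several genes were counted or whether strand was used, so the levels of Stat5a, Stat5b and Cish are the least certain.

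Per length, 3 genes stood far above the others in all 4 libraries. These were the kinases Jak2 (ENSMUSG00000024789, mm10 chromosome 19, 29251828 to 29313080, plus strand) and Jak1 (chromosome 4, 101152367 to 101265282, minus strand) and the restraining adaptor Sh2b3 (chromosome 5, 121815488 to 121837646, minus strand). In RPKM, which is RPM per kilobase of the deposited gene length, Jak2 was at 109, 70.9, 76.1 and 76.4. Jak1 was at 96.7, 87.1, 86.4 and 88.9 RPKM, and Sh2b3 at 81.6, 111, 93.6 and 114 RPKM. Each exceeded at least 96.7% of the genes listed for its library. By the deposited lengths the order in WT was Jak2, Jak1, Sh2b3, and in each of the other 3 libraries it was Sh2b3, Jak1, Jak2. Those lengths are 7227 bases for Jak1, 5030 for Jak2, 4807 for Sh2b3 and 7133 for Stat5a. The annotated transcripts with the longest coding sequence have 4906, 5030, 4195 and 3605 bases in the same order. Close orders between genes therefore depend on the length used.

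**Figure D1:**
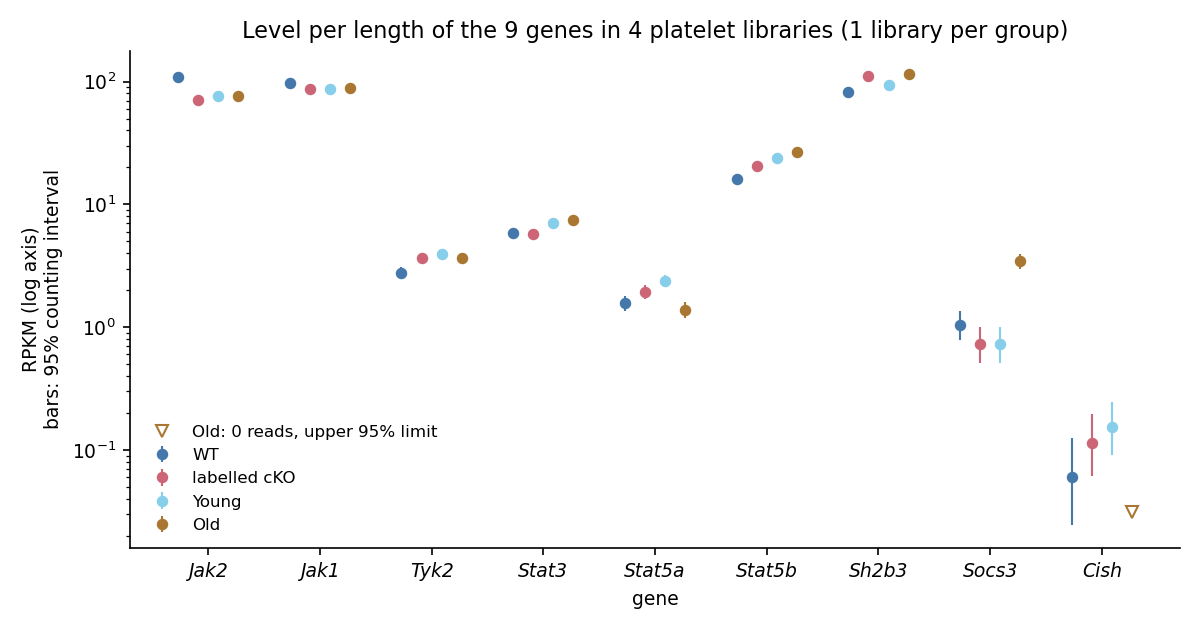
Level of the 9 genes as RPKM on a log axis in the 4 libraries, 1 point per library with its 95% counting interval; the open triangle is the upper limit for Cish in Old, which had 0 reads. Jak2, Jak1 and Sh2b3 lie between 70.9 and 114 RPKM, and Socs3 stands highest in Old at 3.45 RPKM.

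Stat5b (chromosome 11, 100780731 to 100850724, minus strand) was the leading STAT of the 7 in the family, with 16.0, 20.7, 23.9 and 26.9 RPKM. It held 38.7%, 44.9%, 44.1% and 55.9% of the summed STAT level per length. Stat3, the STAT of the interleukin 6 family, followed among the members at 5.88, 5.72, 7.05 and 7.49 RPKM. Tyk2, a JAK kinase of interferon and interleukin receptors, was at 2.75, 3.68, 3.92 and 3.64 RPKM, and Stat5a at 1.57, 1.93, 2.40 and 1.38 RPKM. The induced inhibitors were the lowest 2 members in the 3-month libraries, whereas in Old the lowest were Stat5a and Cish. Socs3 was at 1.04, 0.723, 0.724 and 3.45 RPKM, and Cish at 0.0607, 0.114 and 0.155 RPKM with 0 reads in Old. From Jak2 to Cish every neighbouring pair in these orders was apart by more than counting error, except Tyk2 and Socs3 in Old (ratio per length 1.06, 0.887 to 1.26). Socs3 in Old was 2.49 times Stat5a per length (2.02 to 3.08). These intervals take the deposited lengths as given and do not cover the choice of length.

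The library labelled cKO was set against WT to ask how the pathway's RNA differs with the genotype label. Jak2 was lower and Sh2b3 higher than in WT, both by less than the size rule. Of the 9 members 7 had at least 100 reads, and 0 rose and 0 fell. Over all 6273 genes with that many reads, 4.22% passed the rule in either direction. The members' median log2 ratio was 0.25, beside -0.01 over all genes. With Young as the comparator this median was -0.003, beside -0.004, and for WT over Young it was -0.148, beside -0.004. Against WT, the counting interval excluded 1 for 5 of the 7, against 66.0% of all genes, so this share is near the background. Summed erythroid markers moved between the same libraries, at 1.88 times WT in the library labelled cKO and 0.415 times Young in WT, and their part in the members' differences was not tested.

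Jak2 had 9880, 6317, 6942 and 7099 reads. WT was the high library, and the other 3 lay close together. In the library labelled cKO its ratio to WT was 0.628 (0.609 to 0.648), the lowest of the members with at least 100 reads. With Young, also wild-type and 3 months old, as the comparator it was 0.998 (0.964 to 1.03). In that comparison 0 of the 7 members with enough reads rose or fell, beside 2.07% and 0.793% of all genes (2.86% together), and the interval excluded 1 for 4 of 7, beside 61.0%. Jak2 in WT was 1.56 times its Young level (1.51 to 1.60). The wild-type libraries thus differed nearly as much as WT and the library labelled cKO, which was 1.59-fold lower, and the 2 comparisons share WT.

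Jak1, which pairs with many cytokine receptors, had 12561, 11144, 11334 and 11870 reads. In the library labelled cKO its ratio to WT was 0.872 (0.850 to 0.894), and 0.983 when libraries were scaled by platelet marker reads. Tyk2 had 340, 447, 488 and 461 reads, so that WT was the low library. In the library labelled cKO its ratio to WT was 1.29 (1.12 to 1.49), and to Young 1.00 (0.882 to 1.14).

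Among the STATs, Stat5b had 1592, 2031, 2404 and 2757 reads. WT was again the lowest. The ratio to WT was 1.25 (1.17 to 1.34) and to Young 0.927 (0.873 to 0.983), on opposite sides of 1. Stat5a, with 201, 244, 310 and 182 reads, had a ratio to WT of 1.19 (0.985 to 1.44). Summing both Stat5 genes gave 1.25 (1.17 to 1.33). Stat3 had 1007, 964, 1219 and 1318 reads. Its ratio to WT was 0.940 (0.860 to 1.03), which was not detectable as a difference at this depth and was 1.06 when scaled by platelet marker reads.

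Of the inhibitors, Sh2b3 had 7052, 9477, 8161 and 10163 reads. Both 3-month wild-type libraries were below the other 2. The ratio of the library labelled cKO was 1.32 (1.28 to 1.36) to WT and 1.27 (1.24 to 1.31) to Young, and that of WT to Young was 0.944 (0.915 to 0.975). Socs3 (chromosome 11, 117966079 to 117970047, minus strand) had 54 WT reads and 37 in the labelled cKO, a ratio of 0.673 (0.431 to 1.04). Cish (chromosome 9, 107296026 to 107302784, plus strand) had 7 and 13 reads, a ratio of 1.82 (0.677 to 5.40). At these counts neither difference was detectable.

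**Figure D2:**
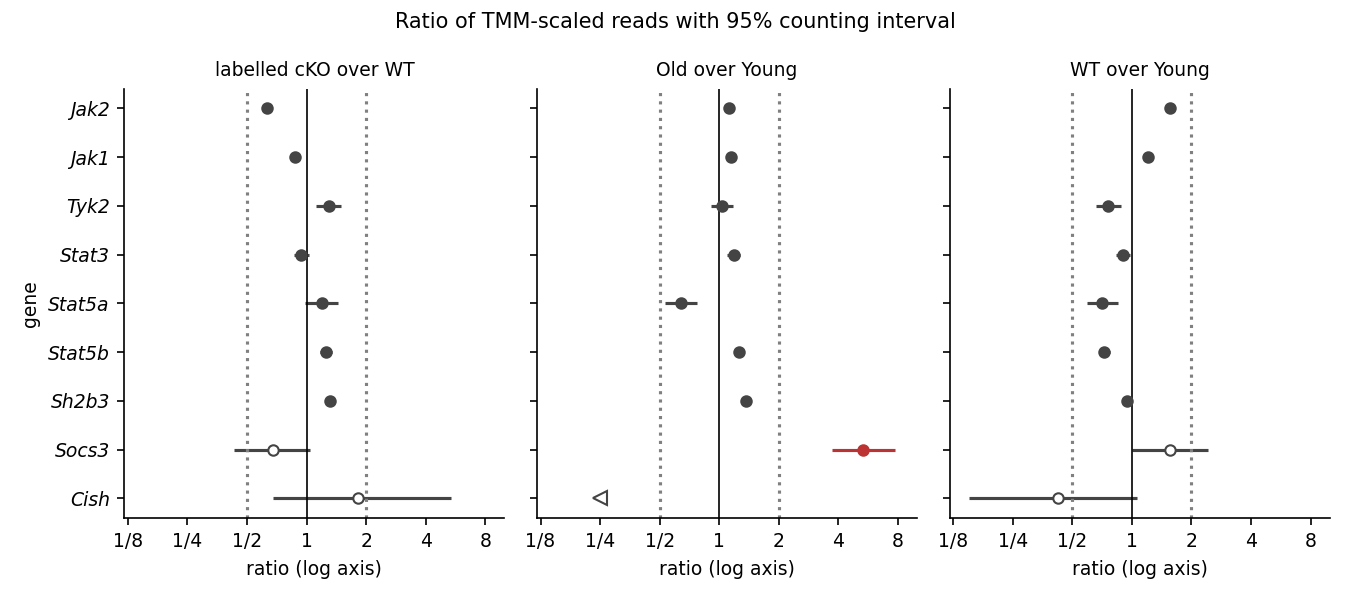
Ratio of TMM-scaled reads of the 9 genes in 3 comparisons (log axis, bars are 95% counting intervals, dotted lines at 2-fold). Open symbols mark genes under 100 reads in both libraries, the triangle is the upper bound for Cish with 0 reads in Old, and red marks the size rule; Socs3 in Old over Young, at 5.30, is the only red point.

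The comparison of Old with Young addressed ageing from 3 to 24 months. Socs3 rose, no Cish read was found in Old, and the kinases, Stat3, Stat5b and Sh2b3 lay within 1.36-fold of Young. Of the 8 members with at least 100 reads 1 rose and 0 fell, where 4.26% of 6519 genes rose and 4.3% fell (8.56% together). The interval excluded 1 for 7 of the 8, beside 76.1% of all genes. Socs3 reached 100 reads only through Old. The median log2 ratio of the 8 members with 20 or more reads in the 2 libraries together was 0.22, beside -0.06 over all genes.

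Socs3, the inhibitor that blocks JAKs at interleukin 6 and granulocyte colony-stimulating factor receptors, had 54, 37, 38 and 184 reads. Old lay above the 3 libraries of 3 months. The ratio of Old to Young was 5.30 (3.72 to 7.73), and to WT 3.41 (2.51 to 4.71). Against WT, as against Young, it was the 1 member of 8 past the rule, beside 4.54% of genes that rose and 4.22% that fell (8.75% together), and the interval excluded 1 for 7 of the 8, beside 77.6%. Both ratios share the Old library. Scaling by platelet marker reads gave 3.91 against Young. Summed neutrophil marker reads were 461 in Young and 14306 in Old, a ratio of 34.0 (31.0 to 37.4), and 9 of the 12 markers rose. The only marker with no reads in Old was Elane, while Ltf, Camp, Elane and Mpo had none in Young. Per 100 neutrophil marker reads, Socs3 had 5.15, 6.50, 8.24 and 1.29 reads, fewest in Old. Of the 10 monocyte and macrophage markers 3 rose and 0 fell in Old over Young, with a median log2 ratio of 1.52 and 8 of 10 above 1, while the ratio of their sums was 0.816 (0.806 to 0.826), on the other side of 1 (3525 RPM in Young, 2581 in Old). The only one of them with no reads in Young was Cd14, and all had reads in Old. The part of neutrophil, monocyte or macrophage RNA in the Socs3 difference was not tested.

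Cish, the STAT5-induced inhibitor, had 7, 13, 18 and 0 reads. Old was the only library without a read. Against a floor of 3 reads in Old, it was at least 5.48-fold lower than in Young and at least 2.33-fold lower than in WT. The counting intervals, which also cover the error of the Young and WT counts, reach down to 4.02-fold against Young and 1.44-fold against WT. With under 100 reads it could not pass the size rule, and part of its transcript overlaps an antisense gene. In the authors' deposited table, Socs3 had a log2 fold change of 2.40 with an adjusted p of 7.56e-05, and Cish one of -7.12 with an adjusted p of 0.00298. The test behind these values is not given, and each compares 2 libraries. No other member had an adjusted p under 0.05 there, and 0 of 9 did for the library labelled cKO over WT.

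Among the signal carriers, the Old to Young ratio was 1.12 (1.08 to 1.16) for Jak2, 1.15 (1.12 to 1.18) for Jak1, 1.03 (0.909 to 1.18) for Tyk2 and 1.18 (1.09 to 1.28) for Stat3. All 4 lay below 1 when libraries were scaled by platelet marker reads (0.825, 0.845, 0.762 and 0.872), so no direction is given for them. Sh2b3 had a ratio of 1.36 (1.32 to 1.40) to Young and 1.44 (1.40 to 1.49) to WT, and 1.00 to Young by platelet marker reads. Summed platelet markers themselves had an Old to Young ratio of 1.36.

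The Stat5 genes lay on opposite sides of 1, neither past the size rule. Stat5b had 2404 reads in Young and 2757 in Old, a ratio of 1.26 (1.19 to 1.33), which was 0.925 by platelet marker reads. Stat5a (chromosome 11, 100859351 to 100885169, plus strand) had 310 and 182, a ratio of 0.643 (0.532 to 0.774), and lay below 1 under each scaling tried. Against WT, Stat5a in Old was at 0.907 (0.738 to 1.11), not detectable as different at this depth. Their sum, which does not depend on how shared reads were split between them, had a ratio of 1.19 (1.13 to 1.25). Of the B cell markers 6 of 9 fell, and their sum went from 9054 reads in Young to 2478 in Old (ratio 0.300, 0.287 to 0.313). Of the T and NK cell markers 2 of 10 fell, and their sum had 1736 and 978 reads (ratio 0.617, 0.570 to 0.668). The part of these cells in the Stat5a difference was not tested.

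WT and Young, both wild-type at 3 months, were compared to show how far libraries of like labels lie apart. Of the 7 members with at least 100 reads 0 rose and 0 fell, beside 0.439% and 0.565% of 6373 genes (1.0% together). The interval excluded 1 for 7 of the 7, beside 60.5% of all genes. Jak2, at 1.56, was the farthest above 1, and Stat5a at 0.709 (0.590 to 0.849) and Stat5b at 0.724 (0.679 to 0.771) the farthest below. Sh2b3, at 0.944, lay nearest to 1.

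Ratios between genes within a library do not depend on library scaling, but their size depends on the gene lengths used. Jak2 over Jak1, per length, was 1.13 (1.10 to 1.16), 0.814 (0.790 to 0.840), 0.880 (0.854 to 0.907) and 0.859 (0.834 to 0.885). By the deposited lengths WT was the only library with more Jak2 than Jak1. Jak1 had more reads than Jak2 in every library. With its transcript of 4906 bases, beside 5030 for Jak2, it would be above Jak2 in each. Sh2b3 over Jak2 was 0.747, 1.57, 1.23 and 1.498, so the restraining adaptor exceeded the kinase in 3 of 4 libraries. Stat5b over Stat5a was 10.2 (8.80 to 11.9), 10.7 (9.38 to 12.3) and 9.99 (8.87 to 11.3) in the 3-month libraries, whose intervals overlap, and 19.5 (16.8 to 22.8) in Old.

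**Figure D3:**
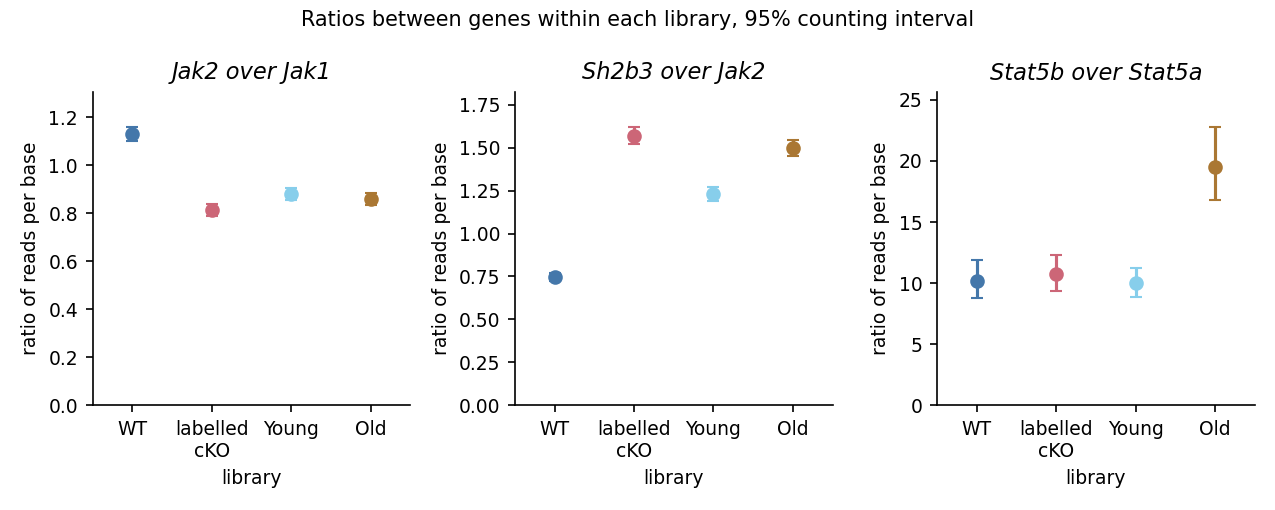
Ratios of reads per base between pairs of genes within each of the 4 libraries, linear axes from 0, bars are 95% counting intervals. Jak2 over Jak1 is highest in WT (1.13), and Stat5b over Stat5a is highest in Old (19.5).

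The rest of the pathway was followed in 86 further genes, of which 77 were listed. Of 9 ligands only oncostatin M (Osm), a cytokine of the interleukin 6 family, was listed, with 18, 3, 13 and 81 reads, under the count minimum. Of the 53 other pathway genes with at least 100 reads in the library labelled cKO or WT, 1 rose and 0 fell, where 2.52% of all genes rose and 1.71% fell. The gene that rose was Cdkn1a, a cell cycle inhibitor on the STAT target list (30, 150, 71 and 84 reads, ratio to WT 4.91, 3.30 to 7.53). It reached 100 reads only through the library labelled cKO, which did not pass against Young (2.32, 1.74 to 3.12).

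In Old over Young, 3 of the 56 other pathway genes with at least 100 reads rose and 3 fell, near the shares of all genes. The split was 3 higher and 7 lower when libraries were scaled by platelet marker reads, and 8 higher and 4 lower with a minimum of 20 reads. The 3 that rose were receptor chains of colony-stimulating factors, among 13 receptor chains with enough reads. Csf3r, the granulocyte colony-stimulating factor receptor, had 181, 157, 110 and 1133 reads, a ratio of Old to Young of 11.3 (9.27 to 13.8). Csf2rb, the common beta chain of the interleukin 3 and granulocyte-macrophage factor receptors, had 53, 40, 23 and 336 reads, a ratio of 16.0 (10.5 to 25.6). Csf2ra, the alpha chain of the latter, had 59, 85, 28 and 113 reads, a ratio of 4.42 (2.90 to 6.94), and did not pass against WT (1.92, 1.39 to 2.68). Csf3r and Csf2rb passed against WT, with smaller ratios of 6.27 (5.36 to 7.38) and 6.35 (4.74 to 8.66). WT was at 1.80, 2.52 and 2.30 times Young for Csf3r, Csf2rb and Csf2ra. Csf2rb and Csf2ra reached 100 reads only through Old. All 3 were highest in Old, as were the summed neutrophil markers. The monocyte and macrophage markers had a median log2 ratio of 1.52, above that of all genes, and a sum below that of Young, as given for Socs3. The part of either cell group's RNA in these differences was not tested.

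**Figure D4:**
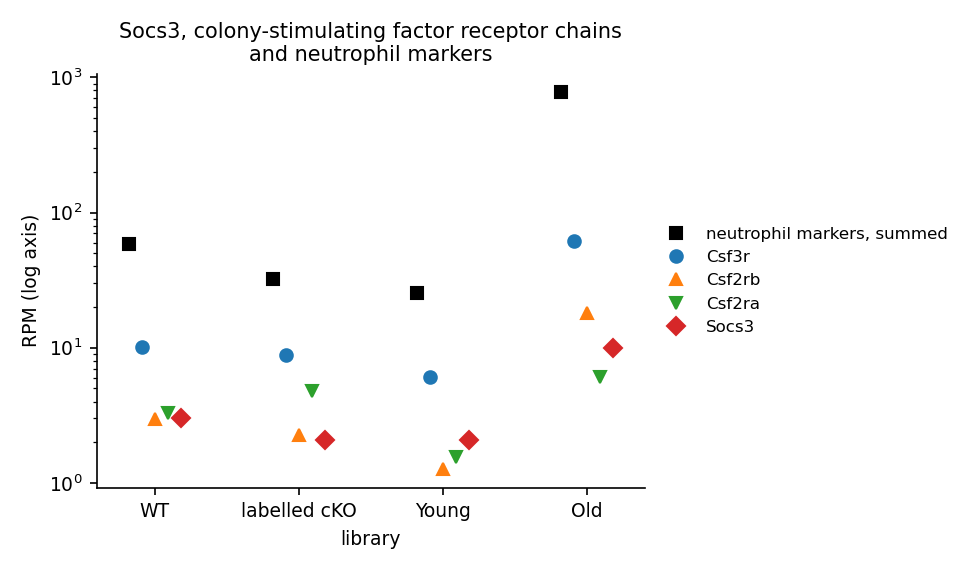
RPM (log axis) of Socs3, 3 receptor chains and the summed neutrophil markers, 1 point per library, with points set side by side for legibility. All 5 series are highest in Old, where the markers reach 774 RPM and Socs3 9.96 RPM.

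The 3 genes that fell in Old were Stat2, Ptpn6 and Pias2. Stat2, the STAT of type I interferon signalling, had 212, 193, 292 and 80 reads and was 3.33-fold lower in Old than in Young (2.59 to 4.32). Ptpn6, the phosphatase SHP-1 that switches off JAK kinases, had 1226, 1074, 1347 and 518 reads and was 2.37-fold lower (2.14 to 2.63). Pias2, an inhibitor of STAT-driven transcription, had 100, 61, 114 and 32 reads and was 3.25-fold lower (2.18 to 4.98). In this pair of libraries Stat2 and Pias2 reached 100 reads only through Young. For each of the 3, Old was the lowest library, and all passed against WT as well. Summed B cell markers (612, 546, 499 and 134 RPM) were also lowest in Old. Among the 3-month libraries they were lowest in Young, where the 3 genes had the most reads. Summed T and NK cell markers were at 50.8, 50.8, 95.7 and 52.9 RPM. The part of these cells in the 3 differences was not tested. Among the 14 adaptors with enough reads none passed in either comparison, and Grb2, the most abundant, had 1840 reads in Young and 2106 in Old (ratio 1.25, 1.18 to 1.33). The median log2 ratio was 0.85 for receptor chains, -0.51 for the other kinases and STATs, -0.47 for the other inhibitors and phosphatases, 0.07 for adaptors and 0.37 for STAT target genes, beside -0.06 over all genes.

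**Figure D5:**
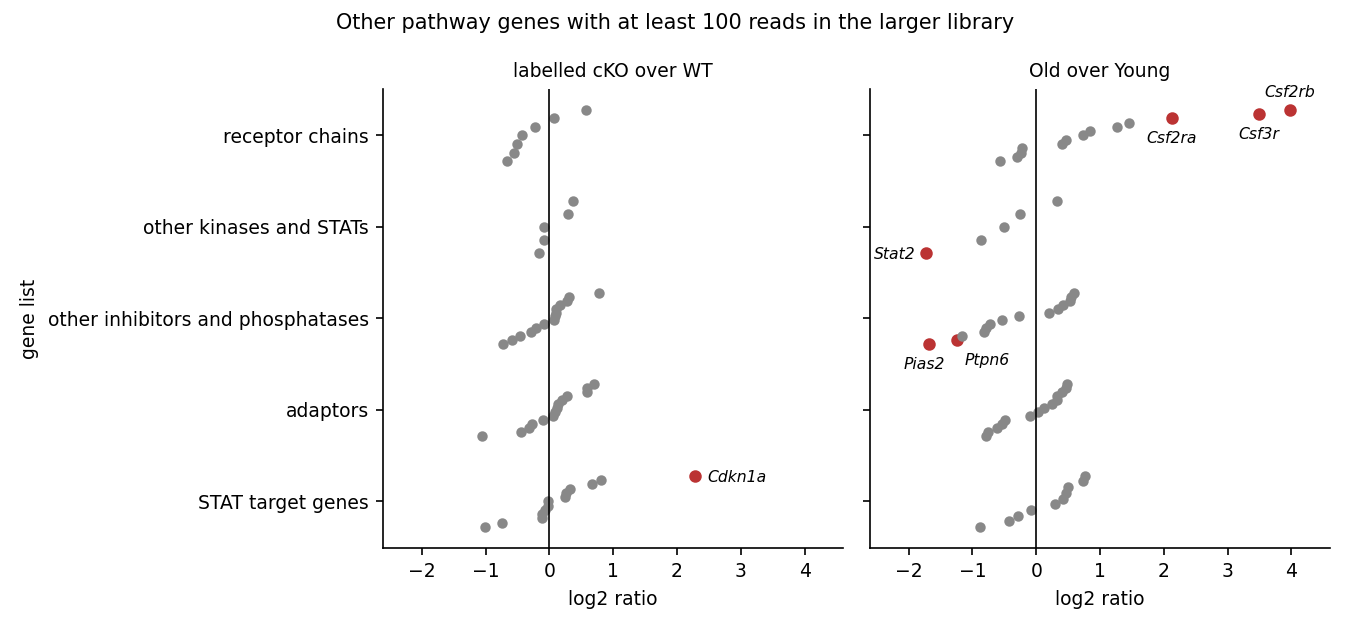
Log2 ratio of the other pathway genes that reach 100 reads in either library, by list, for 2 comparisons; 1 point per gene, red and named where the size rule was passed. In Old over Young 3 receptor chains lie above and Stat2, Ptpn6 and Pias2 below, and in the library labelled cKO over WT only Cdkn1a passes.

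Likeness of pattern was measured for the 2 members with the widest range among those that reached 100 reads in a library, as the Euclidean distance between log2(RPM + 0.05) values centred on their mean over the 4 libraries, among 6411 protein-coding genes that reached 100 reads. Nearest to Socs3 were Clec4e, a C-type lectin receptor (distance 0.16, with 48, 33, 38 and 160 reads), Fcgr3, an Fc receptor (0.18), and the chemokine Ccl6 (0.19). Fcgr3 had 42, 24, 27 and 131 reads, and Ccl6 98, 64, 64 and 276. Socs3, Clec4e, Fcgr3 and Ccl6 all reached 100 reads only through Old, so their likeness follows in part from that filter. Nearest to Stat5a were Ptpn22, a phosphatase (distance 0.04, with 268, 338, 425 and 246 reads), Arhgef3 (0.06) and the kinesin Kif21b (0.06). With 4 points per gene many genes lie close, and the distances are a description.

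HuR binds AU-rich elements, so the pentamer ATTTA was counted on the sense strand of each member's 3′ untranslated region (GENCODE M21, transcript with the longest coding sequence). It was found in all 9, and in 63.2% of 20043 genes. The members' regions run from 979 bases (Tyk2) to 2365 (Stat5b), all above the median of 845. A longer region has more room for a copy, so these shares are not comparable. Jak1 and Socs3 held 4 copies each, Stat5b and Cish 3, Jak2, Stat3 and Sh2b3 2, and Tyk2 and Stat5a 1. Per kilobase, Jak1 (3.55), Cish (2.76) and Socs3 (2.71) were above the median of 1.2 by the widest margin. Jak2 (1.62) and Stat5b (1.27) were also above it, and Stat3 (1.06), Tyk2 (1.02), Sh2b3 (0.942) and Stat5a (0.903) below. The counts describe the annotated sequence, and binding was not measured.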

How the data were processed

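The deposited files are 2 tables, of which 1 pairs cKO with WT and the other Old with Young. They hold a deposited signal per gene and library that the values show to be reads scaled within each table. The submitters' processing notes name, with no role or order, mm10, HISAT2 2.0.5, DESeq2 1.20.0, CASAVA and featureCounts 1.5.0-p3. After division by the worth of 1 read in each library, 100% of values lay within 0.02 of a whole number. The deposited log2 fold changes and p-values compare 2 libraries by a test that is not given. A further 4 per-sample columns match no sample and were not used.

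Reads were scaled by TMM (edgeR 4.0.16, R 4.3.3) for each pair, over the genes of both tables where a pair crosses them. Read quotients were thereby multiplied by 0.982 for cKO over WT and by 1.09 for Old over Young and for WT over Young. Intervals are exact Clopper-Pearson 95% intervals from the share of a gene's reads in 1 library, and Poisson intervals for levels. They cover only counting error: without molecular identifiers, reads are not independent molecules. No test across replicates is possible, and none was run. The interval and size rule were tried on simulated counts with Poisson error alone, the error that the interval assumes. That trial therefore cannot show how they perform with variation between libraries. Medians use genes with at least 20 reads over both libraries and a pseudocount of 0.5 read.

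The members and lists were chosen with earlier results of these data known. The text names all members, other pathway genes past the size rule in cKO over WT or Old over Young, otherwise the most abundant gene of a list, and the 3 nearest genes by pattern for the 2 members with the widest range. A further gene of the pathway (1 receptor) is not reported here. Genes in the closing section were chosen after their values were seen.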

Additional observations from a re-analysis of the deposited data

How the results depend on the processing

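Scaling by total reads moved the log2 ratio of every gene by -0.16 in Old over Young, and scaling by platelet marker reads by -0.44. The shifts were -0.11 and -0.22 for WT over Young, and 0.05 and 0.17 for the library labelled cKO over WT. Under these scalings and the median of ratios, the count of members past the size rule stayed at 0, 1 and 0 for the library labelled cKO over WT, Old over Young and WT over Young, with Socs3 the 1 in Old. It was also 0 for the library labelled cKO with Young as comparator and 1 for Old with WT as comparator. With a bound of 1.5-fold the counts were 1 (Jak2, lower), 1 and 1 (Jak2, higher), and with a bound of 1-fold 5, 7 and 7. Without a minimum count, Cish joined in Old over Young, making 2. For the other pathway genes the counts of 1, 6 and 0, in the same order, became 2, 12 and 2 with a minimum of 20 reads and likewise with no minimum, 4, 13 and 1 with a bound of 1.5-fold, and 32, 50 and 30 with a bound of 1-fold. Scaling by platelet marker reads gave 10 in Old over Young (3 higher, 7 lower) and 1 in WT over Young, and the 12 of Old over Young were 8 higher and 4 lower. With Young as comparator the library labelled cKO had 0. These changes follow from which reads and bounds are admitted and, for the scaling, from the shifts given above. What underlies those shifts and the change with the comparator was not tested. Depth limits Cish and, outside Old, Socs3, whose reads were under 100. No replicate could be left out with 1 library per group. No paired analysis was possible because each group has 1 library.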

Other observations

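Some pathway genes that did not pass the size rule in the library labelled cKO over WT or in Old over Young are given here, with 4 values in the order WT, labelled cKO, Young and Old. Bcl2l1, a STAT5 target that encodes the survival protein Bcl-xL, which sets platelet lifespan, had 5825, 2956, 6661 and 10103 reads. The library labelled cKO was the lowest, 2.01-fold under WT (1.92 to 2.10) and 2.05-fold under Young (1.97 to 2.15), while the ratio of WT to Young was 0.956. In Old it was 1.66 times the Young level (1.61 to 1.71). Pik3cb, a catalytic subunit of phosphoinositide 3-kinase, had 2279, 1111, 1889 and 2056 reads. The library labelled cKO was again the lowest, 2.09-fold under WT (1.94 to 2.25) and 1.55-fold under Young (1.44 to 1.67).

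Ccnd3, a D-type cyclin, had 14881, 26425, 16815 and 26113 reads. The library labelled cKO was at 1.74 times WT (1.71 to 1.78) and Old at 1.70 times Young (1.67 to 1.73), while WT and Young differed by a ratio of 0.967 (0.946 to 0.989). Pim1, a kinase induced by STAT5, had 161, 205, 388 and 499 reads. The ratio of Old was 3.11 to WT (2.60 to 3.73) and 1.41 to Young (1.23 to 1.61), and WT was 2.21-fold under Young (1.83 to 2.67). Epor, the erythropoietin receptor, had 163, 116, 257 and 392 reads, and Old was at 2.41 times WT (2.00 to 2.91) but 1.67 times Young (1.42 to 1.96). Summed erythroid marker reads were 148388, 284333, 390420 and 207428, and their part in the Epor values was not tested.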
